A study of Mus musculus with 18 samples.

Results

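The 3 arrays of Art:Nfkb2-labelled pre-B cells in interleukin 7 (IL-7) were set against the 3 arrays of Rag-labelled pre-B cells in IL-7, 6 of the 18 arrays of the series. They were chosen by title: Art-/-:Nfkb2-/-:IgH:Bcl2 in IL-7, against Rag-/-:IgH:Bcl2 in IL-7. Pre-B cells are precursors in bone marrow that already make a heavy chain and next rearrange a light-chain gene. Both groups carried an IgH transgene and a Bcl2 transgene, and the mice were of mixed background, C57BL/6 and BALB/c. Bone marrow of mice aged 4 to 6 weeks was cultured for 7 to 10 days with 5 ng/mL IL-7, and these arrays were taken at day 0, before any withdrawal of the cytokine. RNA was hybridised to 1-colour Illumina MouseRef-8 bead arrays, and the series also holds Art-/-:IgH:Bcl2 cells and arrays of all 3 genotypes at 2 days after IL-7 withdrawal.

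The sample labels write Rag where the series' design text names Rag1 as deleted, and the genotype field of the Art:Nfkb2 arrays omits the knockout mark on Nfkb2 that their titles carry. The groups differ in 3 genes at once, and the effects of RAG, Artemis and Nfkb2 cannot be told apart in this pair. The values of Art-labelled cells in IL-7 (n = 3), which lack only Artemis by their label, are therefore given beside the main results. The Bcl2 transgene supplies a survival protein to both groups. The strain make-up of each culture is not given in the labels.

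RAG cuts antigen receptor genes to start their recombination, and Artemis is the nuclease that opens the hairpin ends that RAG leaves. Without Artemis these ends stay unjoined, whereas without RAG no cut is made, and unjoined breaks signal through the ATM kinase to p53 and NF-kB. Nfkb2 encodes p100, which restrains RelB and is cut to p52 in the noncanonical NF-kB pathway, while the canonical pathway runs through RelA and c-Rel and is held back by the I-kappa-B proteins. IL-7 drives the growth of pre-B cells and keeps light-chain recombination low.

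Even in IL-7, 19 of 42 tested NF-kB genes and 14 of 30 p53 targets were higher in Art:Nfkb2-labelled cells than in Rag-labelled cells. So were 9 of 14 MHC class II genes and 10 of 16 MHC class I genes. The 19 NF-kB genes include the targeted Nfkb2, whose probe the labels do not place inside or outside the deletion. The recombinase genes Rag1 and Rag2 and 6 more of 29 tested genes of the pre-B stage and of light-chain rearrangement were lower, and 3 were higher. Rag1 is the gene named as deleted in Rag-labelled cells, and its probe is not placed relative to the deletion. Rag2 was detected on 1 Rag-labelled array and on no Art:Nfkb2-labelled array. Of 33 tested proliferation genes 0 were called. Of 8446 genes tested, 963 (11.4%) were called, 564 higher (6.68%) and 399 lower (4.72%) in Art:Nfkb2-labelled cells. Called means an adjusted p under 0.05 in limma's test with Benjamini-Hochberg adjustment over all genes. Of these, 278 (3.29%) also differed by at least 2-fold, 187 higher (2.21%) and 91 lower (1.08%).

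All levels below are log2 normalised signals, ± gives the SD of 3 arrays beside a mean and the standard error (SE) beside a log2 difference, and every difference is Art:Nfkb2-labelled minus Rag-labelled. The median difference of all genes was -0.01 with a median SE of 0.14, and the median was 0.73 among genes called higher and -0.69 among genes called lower. The groups did not overlap (every array of one group above every array of the other) for 949 of the 963 called genes, and over all genes for 1152 in the higher (13.6%) and 1129 in the lower direction (13.4%). Pairwise correlations between replicate arrays were 0.99 to 0.992 in Art:Nfkb2-labelled and 0.983 to 0.99 in Rag-labelled cells. Between 10393 and 10862 of 25697 probes were detected on the Art:Nfkb2-labelled arrays and between 10540 and 10894 on the Rag-labelled arrays. The design speaks of separate cultures, and their number limits the precision. In bulk RNA, more cells of a type and more RNA per cell cannot be told apart.

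**Figure D1:**
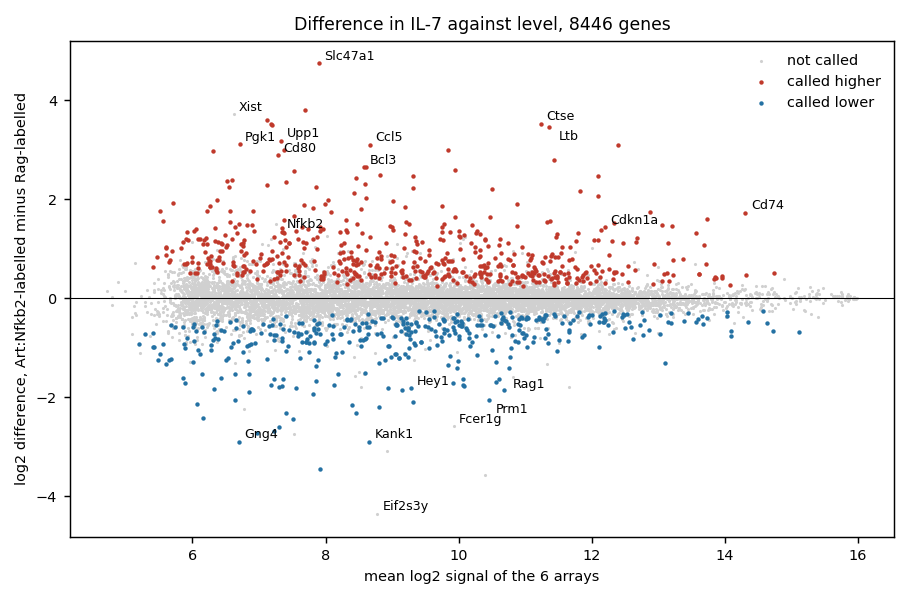
Each point is 1 of 8446 genes, with its mean log2 signal over the 6 arrays on the horizontal axis and its log2 difference, Art:Nfkb2-labelled minus Rag-labelled, on the vertical axis. Red marks the 564 genes called higher, blue the 399 called lower and grey the rest; Slc47a1 lies highest, and the sex-linked Eif2s3y and Xist are far from 0 without a call.

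Sex-linked genes differed between arrays. Eif2s3y, on the Y chromosome, gave 4.63, 4.71 and 10.46 in Art:Nfkb2-labelled cells, against 10.66, 10.95 and 11.26 in Rag-labelled cells. Xist, expressed from the inactive X chromosome, gave 10.61, 10.16 and 4.66 in Art:Nfkb2-labelled cells, against 4.92, 4.69 and 4.68 in Rag-labelled cells. Arrays 1 and 2 of the Art:Nfkb2-labelled cells thus carried Xist and no Y signal, and array 3 and all Rag-labelled arrays the reverse. With sex as a term in the fit of all arrays, 620 genes were called, 383 higher and 237 lower, against 963 without it. In that fit 10 class II genes, 17 NF-kB genes and 13 p53 targets were called higher, and 36 of the 140 named genes that were called lost their call. Art:Nfkb2 array 1 also stood apart in 3 genes of chromosome 1, described with the lower genes.

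The targeted genes were looked at first. Rag1 gave 10.06, 9.88 and 9.33 in Art:Nfkb2-labelled cells, against 11.37, 11.54 and 11.91 in Rag-labelled cells. The probe was thus detected on all arrays and brightest under the Rag label, 3.60-fold lower in Art:Nfkb2-labelled cells (log2 difference -1.85 ± 0.20, limma adjusted p = 1.62e-05). Rag2, its neighbour and partner, was detected on no Art:Nfkb2-labelled array and on 1 Rag-labelled array, a difference of at least 1.12-fold (adjusted p = 0.00174). Nfkb2 gave 8.09, 8.17 and 7.78 in Art:Nfkb2-labelled cells, against 6.51, 6.70 and 6.80 in Rag-labelled cells. It was 2.53-fold higher under the label that names its knockout (log2 difference 1.34 ± 0.12, adjusted p = 1.54e-06), and Art-labelled cells averaged 7.70 ± 0.10. The labels do not place either probe inside or outside the deletion, so neither checks the genotype. The Artemis gene was not analysed here.

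Genes near the targeted loci were counted in the order of the RefSeq annotation, up to 25 protein-coding genes to each side. The window around Dclre1c held 31 genes in place of 50, because the annotated genes of its chromosome end within 25 places. Around Nfkb2, 5 of 25 tested genes were called (20.0%, against 11.4% of all genes). Mfsd13a, a transporter-family gene 4 places away, stood at 5.84, 5.71 and 5.30 in Art:Nfkb2-labelled cells, against 7.76, 7.82 and 7.42 in Rag-labelled cells. It was detected on no Art:Nfkb2-labelled array and was at least 2.95-fold lower (log2 difference -2.05 ± 0.17, adjusted p = 9.78e-07), while Art-labelled cells averaged 7.89 ± 0.28. Sfxn3 (-1.25), Btrc (-0.80) and Arl3 (-0.87) were also lower and Fbxl15 (0.28) was higher. Around Rag1, 5 of 22 tested genes were called (22.7%), namely Rag2, Cat (-1.21) and Fjx1 (-0.93) lower and Ttc17 (0.55) and Pex16 (0.36) higher. Around Dclre1c, the Artemis gene, 2 of 13 were called (15.4%), Fam107b (-0.78) and Camk1d (-0.95), both lower.

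The 15 largest called differences with non-overlapping groups in the higher direction included secreted factors, cell-surface proteins and enzymes. They were ranked by the fitted log2 difference, and 8 of the 15 were detected on no Rag-labelled array, so their place in the order is uncertain. Cnr2, measured in both groups and 6.00-fold higher, is outside the 15, while the bound of Foxq1 is 3.24-fold. Slc47a1, an exporter of organic cations, gave 10.37, 10.32 and 10.14 in Art:Nfkb2-labelled cells, against 5.72, 5.32 and 5.55 in Rag-labelled cells. Where no array of a group detected a gene, the fold is a lower bound, set against the higher of that array's weakest detected signal and the gene's own. By this bound Slc47a1 was at least 18.2-fold higher (log2 difference 4.75 ± 0.22, adjusted p = 2.78e-09), and Art-labelled cells stood as high, at 10.26 ± 0.48. Ctse, the aspartic protease cathepsin E, gave 13.54, 12.74 and 12.74 in Art:Nfkb2-labelled cells, against 9.75, 9.06 and 9.63 in Rag-labelled cells. It was 11.5-fold higher (log2 difference 3.53 ± 0.25, adjusted p = 2.19e-07), and Art-labelled cells, at 8.47 ± 0.31, lay below both groups. Adm, the vasoactive peptide adrenomedullin, gave 9.10, 8.96 and 8.81 in Art:Nfkb2-labelled cells, against 5.53, 5.25 and 5.57 in Rag-labelled cells. The bound for Adm was at least 7.27-fold higher (adjusted p = 2.07e-08), and Art-labelled cells were between the groups at 7.46 ± 0.18.

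In 3 of these genes the Art-labelled arrays, like the Rag-labelled ones, gave no detected signal. Pglyrp1, a peptidoglycan recognition protein, gave 8.85, 8.73 and 9.22 in Art:Nfkb2-labelled cells, against 5.15, 5.15 and 5.95 in Rag-labelled cells, at least 7.16-fold higher. Foxq1, a forkhead transcription factor, gave 8.39, 7.79 and 7.18 in Art:Nfkb2-labelled cells, against 4.80, 4.66 and 4.99 in Rag-labelled cells, at least 3.24-fold higher. Pgk1, the glycolytic phosphoglycerate kinase, gave 8.32, 8.29 and 8.18 in Art:Nfkb2-labelled cells, against 4.85, 5.39 and 5.23 in Rag-labelled cells, at least 4.51-fold higher. None of these 3 was detected on any Rag-labelled or Art-labelled array in IL-7, where Art-labelled means were 5.33 ± 0.24 for Pglyrp1, 4.70 ± 0.04 for Foxq1 and 4.98 ± 0.18 for Pgk1. Adjusted p was 2.98e-07 for Pglyrp1, 9.96e-07 for Foxq1 and 6.39e-10 for Pgk1. The Pgk1 values rest on 1 probe, detected on every Art:Nfkb2-labelled array and on no array of the other genotypes in either condition. Whether its signal comes from the Pgk1 gene itself or from Pgk1 sequence in a targeted allele was not tested, so it is not read here as a level of the enzyme's RNA.

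Upp1, a uridine phosphorylase, gave 9.24, 8.31 and 9.23 in Art:Nfkb2-labelled cells, against 5.75, 5.54 and 5.93 in Rag-labelled cells, and was at least 7.12-fold higher. Dnase1l3, a secreted DNase, gave 11.33, 11.37 and 11.32 in Art:Nfkb2-labelled cells, against 8.86, 8.12 and 8.03 in Rag-labelled cells, an 8.02-fold difference. In both genes all 3 Art:Nfkb2-labelled arrays lay above all 3 Rag-labelled arrays, and adjusted p was 1.48e-05 for Upp1 and 2.15e-07 for Dnase1l3. Fam167a was at least 7.14-fold higher (adjusted p = 7.44e-07) and Rhbdf1, an inactive rhomboid protein, at least 6.87-fold higher (adjusted p = 1.74e-06). The other 5 of the 15, Ltb, Ccl5, Cd80, Fcgr3 and Bcl3, are described with their groups below.

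**Figure D2:**
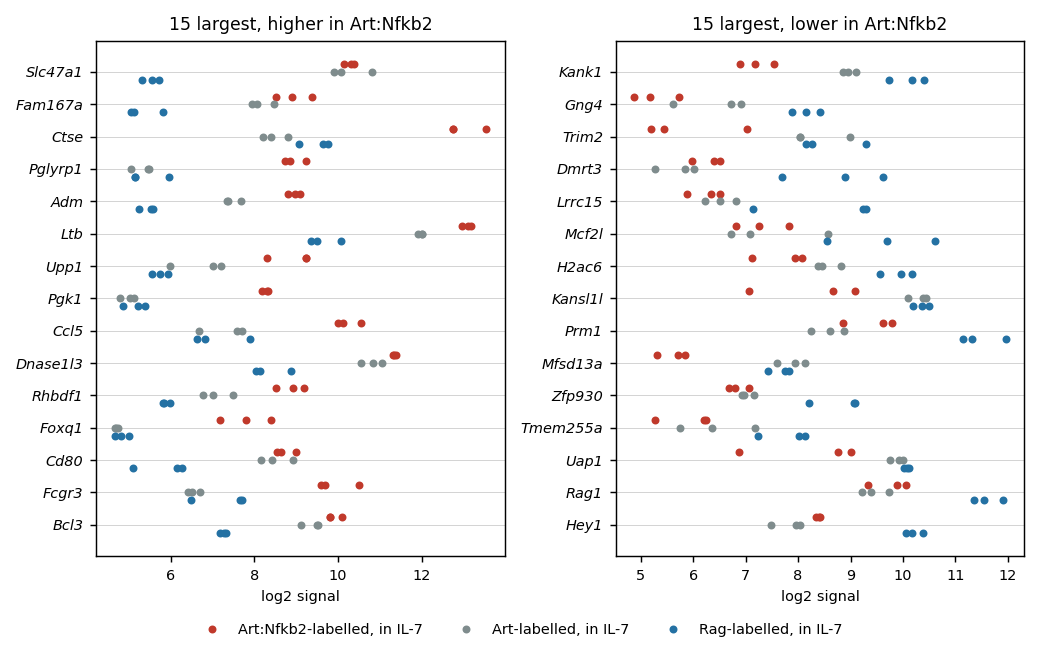
Log2 signal of each array in IL-7 for the 15 largest called differences in each direction; each point is 1 array, red for Art:Nfkb2, grey for Art and blue for Rag, 3 arrays each. Art-labelled points sit with the red ones for Slc47a1, with the blue ones for Pgk1, and between the groups for Adm and Kank1.

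Among the 15 largest differences in the lower direction, of which 2 (Gng4 and Mfsd13a) were detected on no Art:Nfkb2-labelled array, were regulators of the cytoskeleton, transcription factors and a histone gene. Kank1, a regulator of actin assembly, gave 7.55, 7.18 and 6.89 in Art:Nfkb2-labelled cells, against 10.40, 9.74 and 10.17 in Rag-labelled cells. It was 7.44-fold lower (log2 difference -2.90 ± 0.22, adjusted p = 3.87e-07), with Art-labelled cells between at 8.97 ± 0.13. Gng4, a G protein gamma subunit, was detected on no Art:Nfkb2-labelled array, at 5.17, 4.87 and 5.73, against 8.15, 8.42 and 7.88 in Rag-labelled cells, at least 4.12-fold lower (adjusted p = 2.99e-05). Hey1, a repressor known as a Notch target, gave 8.42, 8.40 and 8.33 in Art:Nfkb2-labelled cells, against 10.17, 10.05 and 10.38 in Rag-labelled cells. It was 3.52-fold lower (log2 difference -1.82 ± 0.15, adjusted p = 7.22e-07), and Art-labelled cells were lower still at 7.83 ± 0.29. Prm1, the sperm protein protamine 1, gave 9.80, 9.63 and 8.85 in Art:Nfkb2-labelled cells, against 11.33, 11.16 and 11.97 in Rag-labelled cells, 4.16-fold lower (adjusted p = 3.19e-05).

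The histone H2A gene H2ac6 was 4.56-fold lower (log2 difference -2.19 ± 0.25, adjusted p = 2.63e-05), and the zinc finger gene Zfp930 was 3.82-fold lower (adjusted p = 9.93e-06). Trim2, a ubiquitin ligase, was at 5.19, 5.45 and 7.02 in Art:Nfkb2-labelled cells, against 9.29, 8.16 and 8.26 in Rag-labelled cells, 6.43-fold lower (adjusted p = 0.00105). Dmrt3, a DM-domain transcription factor, was 5.45-fold lower (adjusted p = 0.00165) and Tmem255a, a membrane protein on the X chromosome, 3.72-fold lower (adjusted p = 0.00724). With the sex term Tmem255a was not called (-1.63, adjusted p = 0.0754), and 3 others of the 15, Mcf2l, Kansl1l and Uap1, also lost their calls (adjusted p = 0.0708, 0.152 and 0.404). Lrrc15 and Mcf2l had the widest spread among Rag-labelled arrays, with SDs of 1.23 and 1.03. Lrrc15 was 5.01-fold lower (adjusted p = 0.00797), and its log2 difference lay between -3.03 and -1.96 when each array was left out in turn. Mcf2l was 4.98-fold lower (adjusted p = 0.0149), and without Art:Nfkb2 array 1 or without Rag array 1 its call was lost (highest adjusted p = 0.0683).

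Art:Nfkb2 array 1 stood apart from arrays 2 and 3 in 3 genes of chromosome 1. Uap1, an enzyme of UDP-N-acetylglucosamine synthesis, gave 6.86 on it and 8.76 and 9.02 on the others, against 10.08, 10.03 and 10.11 in Rag-labelled cells. Kansl1l gave 7.06 on it and 9.09 and 8.66 on the others, against 10.37, 10.19 and 10.50 in Rag-labelled cells. Fcer1g, the common Fc receptor gamma chain, gave 4.57 on it and 10.30 and 11.04 on the others, against 10.58, 11.58 and 11.49 in Rag-labelled cells. Uap1 was called 3.63-fold lower (adjusted p = 0.0470) and Kansl1l 4.25-fold lower (adjusted p = 0.0138), while Fcer1g was not (-2.58 ± 1.36, adjusted p = 0.276). Without array 1 both calls were lost, with a difference of -1.19 for Uap1 and -1.48 for Kansl1l. The Uap1 call was also lost without Art:Nfkb2 array 2 and without each Rag array in turn (highest adjusted p = 0.222). Without it 241 genes were called lower, against 399 with it.

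Of the 28 gene lists, NF-kB genes had the most members tested and the most called higher. By share, 45.2% were higher, less than for MHC class II (64.3%), MHC class I (62.5%) and p53 targets (46.7%). Of 48 NF-kB genes listed, 44 were on the array and 42 were tested. Of these 19 were higher, among them the targeted Nfkb2, and 0 lower, against 6.68% higher and 4.72% lower among all genes. The median difference of the 42 was 0.47, beside -0.01 for all genes, and 22 of the 42 had higher, non-overlapping groups, against 13.6% of all genes. The summed linear signal of the list was 157269 to 163334 on Art:Nfkb2-labelled arrays and 112560 to 118432 on Rag-labelled arrays.

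Among subunits and their partners, Relb, the partner of p52, gave 10.70, 10.67 and 10.68 in Art:Nfkb2-labelled cells, against 9.75, 8.95 and 9.25 in Rag-labelled cells, 2.57-fold higher (adjusted p = 3.57e-05). Bcl3, a nuclear I-kappa-B protein that pairs with p50 and p52, gave 9.81, 10.09 and 9.81 in Art:Nfkb2-labelled cells, against 7.32, 7.18 and 7.28 in Rag-labelled cells. It was 6.25-fold higher (log2 difference 2.64 ± 0.15, adjusted p = 2.07e-08), with no overlap and with Art-labelled cells at 9.37 ± 0.23. The canonical subunits Rela (0.19) and Rel (0.01) did not pass the test. Genes of the upstream kinases did not pass either, with differences of 0.17 for Ikbkb, 0.00 for Ikbkg and 0.21 for Map3k14, the kinase of the noncanonical arm.

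Most tested inhibitors of the pathway were higher, and several of these are known targets of it. Nfkbie, encoding I-kappa-B epsilon, gave 11.91, 11.89 and 11.70 in Art:Nfkb2-labelled cells, against 10.05, 9.75 and 9.97 in Rag-labelled cells. It was 3.76-fold higher (log2 difference 1.91 ± 0.12, adjusted p = 7.90e-08). The other I-kappa-B genes differed less, by 2.59-fold for Nfkbid, 1.93-fold for Nfkbib and 1.57-fold for Nfkbia (adjusted p = 6.52e-05, 2.55e-06 and 0.00591). Nfkbiz was not called (-0.01), nor was Cyld (0.23), another inhibitor of the pathway. Tnfaip3, the A20 deubiquitinase, gave 9.50, 9.59 and 9.27 in Art:Nfkb2-labelled cells, against 8.40, 8.50 and 8.89 in Rag-labelled cells, 1.81-fold higher (adjusted p = 0.00114), and its partner Tnip1 was 1.65-fold higher (adjusted p = 0.000807). Of the adaptors of TNF receptors, Traf1 was at least 2.00-fold higher (adjusted p = 6.52e-05) and Birc3, encoding cIAP2, at least 1.53-fold (adjusted p = 0.00698), while Traf2 (0.58), Traf6 (-0.31) and Birc2 (-0.09) were not called.

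Ltb and Ccl5, whose products act between cells, had the largest differences of the list. Ltb, lymphotoxin beta, gave 13.18, 13.12 and 12.97 in Art:Nfkb2-labelled cells, against 10.07, 9.35 and 9.50 in Rag-labelled cells. It was 10.9-fold higher (log2 difference 3.45 ± 0.18, adjusted p = 6.75e-09), and Art-labelled cells lay between at 11.97 ± 0.05. Ccl5, a chemokine for T and NK cells, gave 10.12, 10.00 and 10.56 in Art:Nfkb2-labelled cells, against 6.64, 6.83 and 7.90 in Rag-labelled cells. It was 8.60-fold higher (adjusted p = 0.000242), whereas Art-labelled cells, at 7.32 ± 0.56, differed from Rag-labelled cells by 0.20. The NK-cell markers Nkg7 (a difference of 2.35) and Il18r1 (at least 3.24-fold) were higher on the same arrays. The other 4 tested NK markers were not called (-0.29 to 0.06), and Ncr1, Klrb1c and Gzma were undetected. Whether NK cells had a part in the Ccl5 value was not tested. Cd83, an activation marker, gave 10.50, 10.43 and 10.75 in Art:Nfkb2-labelled cells, against 8.31, 7.57 and 8.36 in Rag-labelled cells, 5.58-fold higher (adjusted p = 7.22e-07). The chemokines Ccl3 (0.92) and Ccl4 (0.95) and the cytokines Tnf (0.12) and Lta (0.10) were not called.

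Cd40, the receptor through which T cells activate B cells, gave 12.62, 13.05 and 13.04 in Art:Nfkb2-labelled cells, against 11.02, 10.54 and 10.65 in Rag-labelled cells, 4.49-fold higher (adjusted p = 9.62e-06). Pim2, a survival kinase, gave 10.14, 10.03 and 9.82 in Art:Nfkb2-labelled cells, against 7.69, 8.53 and 7.87 in Rag-labelled cells, 3.91-fold higher (adjusted p = 6.37e-05). The transcription factor Irf1 gave 14.32, 14.06 and 14.28 in Art:Nfkb2-labelled cells, against 13.18, 13.21 and 13.05 in Rag-labelled cells, 2.09-fold higher (adjusted p = 9.78e-07). In these 3 genes the groups did not overlap. Icam1, an adhesion molecule, was 1.43-fold higher (adjusted p = 0.00538) and Stat5a 1.34-fold higher (adjusted p = 0.0101).

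Of the 19 genes called higher, 15 kept a call when arrays were scaled by their medians in place of quantiles, which shifts the median of all genes to -0.16. The 4 that lost it were Nfkbia, Icam1, Stat5a and Tnip1, each under 2-fold. With a term for sex in the fit, 17 were called.

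Promoters of the NF-kB genes were searched for GGGNNTTTCC, a common form of the kB site, on both strands, from 250 bases before to 50 bases after the start site (RefSeq, GRCm38.p6). The letters occurred in 1.63% of 32851 such promoters, which are those of 27025 genes, 1.89% of which had a match. Of the 42 tested NF-kB genes 33 had a promoter in the table and 8 of these held the letters, and among genes called higher it was 4 of 15. The 4 promoters are shown because their genes span the NF-kB results above: a ligand, a subunit and 2 inhibitors. Capitals mark the kB letters, on either strand. They lie on GRCm38.p6 at chr17:35194257-35194556 (plus strand, Ltb), chr19:46304487-46304786 (plus strand, Nfkb2), chr12:55492598-55492897 (minus strand, Nfkbia) and chr10:19015361-19015660 (minus strand, Tnfaip3).
Ltb: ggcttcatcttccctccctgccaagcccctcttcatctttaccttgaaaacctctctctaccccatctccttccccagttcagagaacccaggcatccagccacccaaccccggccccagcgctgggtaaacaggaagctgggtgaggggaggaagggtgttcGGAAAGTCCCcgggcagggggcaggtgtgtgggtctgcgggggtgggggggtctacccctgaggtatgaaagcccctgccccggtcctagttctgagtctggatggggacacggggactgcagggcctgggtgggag
Nfkb2: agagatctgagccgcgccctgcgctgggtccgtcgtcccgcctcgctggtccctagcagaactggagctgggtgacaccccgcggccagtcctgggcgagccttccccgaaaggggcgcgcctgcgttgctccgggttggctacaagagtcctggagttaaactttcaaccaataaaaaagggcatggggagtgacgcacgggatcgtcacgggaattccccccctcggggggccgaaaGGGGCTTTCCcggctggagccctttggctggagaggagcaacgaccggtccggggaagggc
Nfkbia: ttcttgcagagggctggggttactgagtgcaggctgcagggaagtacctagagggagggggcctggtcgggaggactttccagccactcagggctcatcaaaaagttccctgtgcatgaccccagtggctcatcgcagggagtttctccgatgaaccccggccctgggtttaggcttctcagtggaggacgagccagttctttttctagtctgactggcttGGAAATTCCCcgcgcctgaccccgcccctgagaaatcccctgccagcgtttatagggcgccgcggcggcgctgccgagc
Tnfaip3: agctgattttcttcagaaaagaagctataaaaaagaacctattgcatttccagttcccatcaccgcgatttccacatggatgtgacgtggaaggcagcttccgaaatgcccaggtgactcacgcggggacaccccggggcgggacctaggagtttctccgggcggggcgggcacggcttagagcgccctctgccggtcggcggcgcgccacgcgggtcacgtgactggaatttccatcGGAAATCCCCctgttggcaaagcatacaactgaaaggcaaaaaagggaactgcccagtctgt
The first marked base lies at -87 from the start site in Ltb, -11 in Nfkb2, -29 in Nfkbia and -12 in Tnfaip3. With the looser GGGNNNTTCC, which also takes in every match of the first motif and is held by 5.56% of all promoters and by 6.31% of genes, 7 of 15 promoters of genes called higher matched, adding Nfkbid, Nfkbie and Tnip1. A match describes the letters in these windows and was not tested as a binding site.

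**Figure D3:**
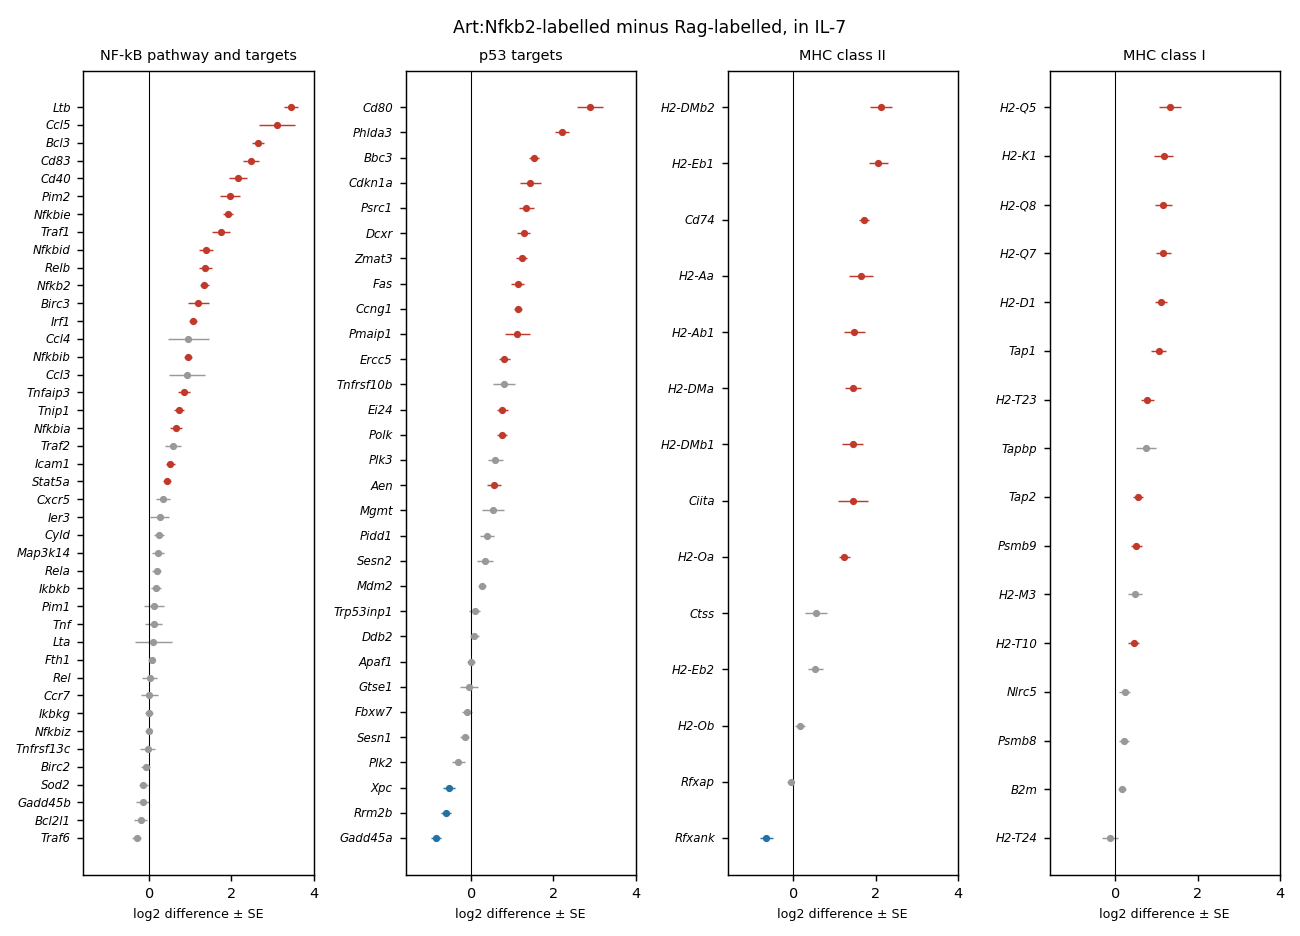
Log2 difference ± SE, Art:Nfkb2-labelled minus Rag-labelled in IL-7, for every tested gene of the NF-kB, p53, MHC class II and MHC class I lists; red is called higher, blue called lower and grey not called. No NF-kB or MHC class I gene is blue, and Gadd45a, Rrm2b, Xpc and Rfxank are the blue points.

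Targets of p53, the transcription factor that answers DNA breaks, were more often higher than lower. Of 40 genes listed, 37 were on the array and 30 were tested, with a median difference of 0.57. Among the 30, 14 were higher (46.7%, against 6.68% of all genes), 3 lower (10.0%, against 4.72%) and 13 not called. Cdkn1a, encoding the cell cycle inhibitor p21, gave 12.92, 12.92 and 12.91 in Art:Nfkb2-labelled cells, against 11.57, 11.76 and 11.13 in Rag-labelled cells. It was 2.70-fold higher (log2 difference 1.43 ± 0.26, adjusted p = 0.00158), and Art-labelled cells stood at the same height, 12.93. Phlda3, an inhibitor of AKT, gave 11.63, 11.59 and 11.59 in Art:Nfkb2-labelled cells, against 9.49, 9.51 and 9.17 in Rag-labelled cells, 4.64-fold higher (adjusted p = 5.52e-07). Bbc3, the death-promoting PUMA, gave 13.07, 13.14 and 13.07 in Art:Nfkb2-labelled cells, against 11.72, 11.43 and 11.55 in Rag-labelled cells, 2.88-fold higher (adjusted p = 7.22e-07). No array of either group overlapped the other in these genes.

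Cd80, a ligand of CD28 that is also listed as a p53 target, gave 8.64, 8.55 and 8.99 in Art:Nfkb2-labelled cells, against 6.27, 6.14 and 5.11 in Rag-labelled cells, 7.41-fold higher (adjusted p = 1.44e-05). Only 1 Rag-labelled array detected Cd80, so this fold rests in part on background values. The cell cycle genes Ccng1 and Psrc1 were 2.19-fold and 2.54-fold higher (adjusted p = 1.43e-06 and 0.000124), the RNA-binding Zmat3 2.34-fold (adjusted p = 1.43e-05) and the death receptor gene Fas 2.19-fold (adjusted p = 0.000178). Dcxr, a sugar reductase, was 2.41-fold higher (adjusted p = 4.30e-05). Repair genes of the list, Polk and Ercc5, were 1.69-fold and 1.75-fold higher (adjusted p = 0.000636 and 0.00124), and Ei24 was 1.69-fold higher (adjusted p = 0.00142). Pmaip1, the death-promoting NOXA, and Aen, a nuclease, were 2.17-fold and 1.47-fold higher, but their calls were lost when single arrays were left out (highest adjusted p = 0.127 and 0.201). Mdm2, the ubiquitin ligase that restrains p53, was not called (0.26 ± 0.10, adjusted p = 0.127).

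The 3 members lower in Art:Nfkb2-labelled cells serve growth arrest or DNA repair, as do Cdkn1a, Polk and Ercc5, which were higher. Gadd45a, a stress sensor, gave 10.58, 10.49 and 10.18 in Art:Nfkb2-labelled cells, against 11.25, 11.12 and 11.43 in Rag-labelled cells, 1.81-fold lower (adjusted p = 0.000156). Rrm2b, a ribonucleotide reductase subunit, was 1.53-fold lower (adjusted p = 0.00587), and Xpc, a damage sensor of nucleotide excision repair, 1.46-fold lower (adjusted p = 0.0238). The Xpc call was lost without any 1 of 4 arrays, Art:Nfkb2 1, 2 or 3 or Rag 1 (highest adjusted p = 0.0783).

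The genes that repair double-strand breaks did not share this pattern. Of 38 listed, 31 were on the array and 25 were tested. Among the 25, 0 were higher and 3 lower (12.0%, against 4.72% of all genes). The median difference was -0.03, and 5 had an unadjusted p under 0.05. Xrcc6, encoding the end-binding Ku70, gave 14.46, 14.43 and 14.30 in Art:Nfkb2-labelled cells, against 15.05, 15.01 and 15.13 in Rag-labelled cells, 1.59-fold lower (adjusted p = 0.00157). The checkpoint kinase Chek1 (-0.53) and the scaffold Xrcc1 (-0.48) were called lower, but without Art:Nfkb2 array 1 or array 2 only 1 gene of the list was called. Chek1 was detected on 1 Art:Nfkb2-labelled array. Atm (0.09), Prkdc (0.10), Lig4 (-0.22), Xrcc4 (0.01) and Trp53bp1 (0.11) were not called.

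Genes of MHC class II, whose proteins show peptides to CD4+ T cells, were mostly higher. Of 17 listed, 16 were on the array and 14 were tested, with a median difference of 1.45. Among the 14, 9 were higher (64.3%, against 6.68% of all genes) and 1 lower (7.14%, against 4.72%). Cd74, the invariant chain, gave 15.15, 15.10 and 15.26 in Art:Nfkb2-labelled cells, against 13.30, 13.35 and 13.70 in Rag-labelled cells. It was 3.30-fold higher (log2 difference 1.72 ± 0.13, adjusted p = 4.26e-07), with Art-labelled cells between at 14.34. H2-Eb1, the E beta chain, gave 13.02, 12.79 and 13.60 in Art:Nfkb2-labelled cells, against 10.70, 10.99 and 11.51 in Rag-labelled cells, 4.20-fold higher (adjusted p = 2.44e-05). H2-DMb2, part of the DM molecule that loads peptides, gave 9.28, 9.09 and 10.09 in Art:Nfkb2-labelled cells, against 7.08, 7.51 and 7.47 in Rag-labelled cells, 4.39-fold higher (adjusted p = 7.00e-05). In each of these genes Art:Nfkb2 array 3 was the highest of the 6.

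The A chains H2-Aa and H2-Ab1 were 3.13-fold and 2.80-fold higher (adjusted p = 0.00114 and 0.000831), H2-DMa and H2-DMb1 2.75-fold and 2.72-fold (adjusted p = 0.000118 and 0.00160), and H2-Oa of the DO molecule 2.37-fold (adjusted p = 2.04e-05). Ciita, the coactivator that switches class II genes on, gave 9.47, 9.39 and 10.29 in Art:Nfkb2-labelled cells, against 8.61, 7.88 and 8.32 in Rag-labelled cells. It was 2.72-fold higher (adjusted p = 0.0181), and the call was lost without Art:Nfkb2 array 3 or without Rag array 2 (highest adjusted p = 0.0924). Rfxank, a subunit of the RFX factor that binds class II promoters, was 1.58-fold lower (-0.66 ± 0.16, adjusted p = 0.0119), and Rfxap was not called (-0.07). Summed signal of the list was 70533 to 95246 on Art:Nfkb2-labelled arrays and 27575 to 35029 on Rag-labelled arrays. Myeloid cells also express class II genes, and with the median myeloid level of each array as a term 9 of the list were called higher. The part of such cells in the class II values was not tested. Closely related class I and class II genes can share probe sequence, and whether each probe is specific was not tested. The strain make-up of each culture is not given, and whether strain had a part in the class I and class II values was not tested.

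Class II promoters carry an upstream Y box, an inverted CCAAT that binds NF-Y beside RFX. CTGATTGG, its common form, was searched on both strands of the same windows and occurred in 4.10% of all 32851 promoters and in 4.70% of genes. Of the 14 tested class II genes 10 had a promoter in the table and 4 of these held it, and among genes called higher it was 3 of 6. The shorter GATTGG, which every such match contains, occurred in 16.1% of all promoters and 18.2% of genes, in 9 of the 10, and in 6 of the 6 called higher. The 3 promoters with the longer form are shown because they belong to called genes of 3 different class II molecules, with the Y-box letters in capitals. They lie on GRCm38.p6 at chr17:34287774-34288073 (minus strand, H2-Aa), chr17:34305617-34305916 (plus strand, H2-Eb1) and chr17:34092129-34092428 (plus strand, H2-Oa).
H2-Aa: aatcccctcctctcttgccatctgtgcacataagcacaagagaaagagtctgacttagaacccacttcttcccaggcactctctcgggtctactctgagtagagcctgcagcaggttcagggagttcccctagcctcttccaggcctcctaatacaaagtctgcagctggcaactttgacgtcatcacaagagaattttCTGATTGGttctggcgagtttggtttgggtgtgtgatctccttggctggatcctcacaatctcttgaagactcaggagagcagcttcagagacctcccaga
H2-Eb1: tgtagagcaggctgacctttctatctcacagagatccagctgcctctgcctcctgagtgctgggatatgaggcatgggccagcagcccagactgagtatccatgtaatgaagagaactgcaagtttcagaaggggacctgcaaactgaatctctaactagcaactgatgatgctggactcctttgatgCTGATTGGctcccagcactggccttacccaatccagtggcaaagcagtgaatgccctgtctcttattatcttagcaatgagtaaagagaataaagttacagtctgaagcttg
H2-Oa: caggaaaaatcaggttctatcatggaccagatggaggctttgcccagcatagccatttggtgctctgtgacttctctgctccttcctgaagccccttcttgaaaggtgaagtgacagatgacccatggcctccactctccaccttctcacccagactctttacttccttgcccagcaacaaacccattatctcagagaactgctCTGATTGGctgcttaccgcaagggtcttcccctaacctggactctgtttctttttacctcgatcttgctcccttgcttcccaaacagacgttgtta
The first marked base lies at -51 in H2-Aa, -62 in H2-Eb1 and -46 in H2-Oa. These matches too describe letters only, and the binding of a factor was not measured.

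MHC class I genes show peptides to CD8+ T cells. Of 26 listed, 20 were on the array and 16 were tested, with a median difference of 0.64. Among the 16, 10 were higher (62.5%, against 6.68% of all genes) and 0 lower. H2-K1, a classical class I heavy chain, gave 11.39, 10.88 and 10.66 in Art:Nfkb2-labelled cells, against 10.34, 9.45 and 9.63 in Rag-labelled cells, 2.25-fold higher (adjusted p = 0.00386). H2-D1, the other classical chain, gave 10.80, 10.62 and 10.79 in Art:Nfkb2-labelled cells, against 9.83, 9.51 and 9.52 in Rag-labelled cells, 2.16-fold higher (adjusted p = 0.000178). The nonclassical H2-Q5, H2-Q7 and H2-Q8 were 2.5-fold, 2.25-fold and 2.25-fold higher and H2-T23 1.72-fold (adjusted p = 0.00356, 0.000421, 0.00145 and 0.00604). Only 1 Rag-labelled array detected H2-Q5, so its fold rests in part on background values. The peptide transporter genes Tap1 and Tap2 were 2.07-fold and 1.45-fold higher (adjusted p = 0.00190 and 0.00698). B2m, the light chain, was not called (0.15), nor was the coactivator Nlrc5 (0.23). With only the 6 arrays in the fit, 6 of the list were called, and 7 with a term for sex.

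Of 33 tested interferon-stimulated genes (48 listed, 45 on the array), 9 were higher (27.3%, against 6.68% of all genes) and 0 lower. The median difference of the 33 was 0.40. Igtp, a GTPase of cell-autonomous immunity, gave 11.55, 10.81 and 11.32 in Art:Nfkb2-labelled cells, against 10.23, 10.08 and 9.77 in Rag-labelled cells, 2.30-fold higher (adjusted p = 0.000112). Oasl2, of the oligoadenylate synthetase family, was 2.69-fold higher (adjusted p = 0.00215), and the RNA sensor Ddx58 was 1.63-fold higher (adjusted p = 0.00131). Irgm2 and Parp14 were 1.69-fold and 1.38-fold higher, and Lgals3bp, Bst2, Ifi47 and Gbp2 between 1.80-fold and 2.28-fold. The calls of Bst2, Ifi47 and Gbp2 were lost without Art:Nfkb2 array 1 or without Rag array 1, where 6 genes of the list remained in the count. The antiviral Isg15 (0.63), Irf7 (detected on no Rag-labelled array) and Ifit3 (0.42) were not called, and 5 genes of the list were called with median scaling.

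Costimulatory and adhesion genes were mixed. Of 28 listed, 24 were on the array and 19 were tested. Among the 19, 6 were higher (31.6%, against 6.68% of all genes) and 2 lower (10.5%, against 4.72%). The median difference was 0.59, or 0.52 with undetected genes at their bound. Cd80, Cd40 and Icam1 are given above. Cd274, encoding the inhibitory ligand PD-L1, gave 10.61, 10.74 and 10.68 in Art:Nfkb2-labelled cells, against 8.82, 8.74 and 8.91 in Rag-labelled cells, 3.62-fold higher (adjusted p = 4.84e-07). Swap70, which links B-cell signalling to the cytoskeleton, gave 12.56, 12.47 and 12.36 in Art:Nfkb2-labelled cells, against 11.21, 11.10 and 11.11 in Rag-labelled cells, 2.51-fold higher (adjusted p = 1.55e-05). The integrin gene Itgb7 was 2.13-fold higher (adjusted p = 0.00939), a call that was lost without Art:Nfkb2 array 3 (adjusted p = 0.0528). Slamf7 was 1.43-fold lower (adjusted p = 0.00864) and Cd48 at least 1.12-fold lower (adjusted p = 0.0109), and without Art:Nfkb2 array 1 or Rag array 3 the Cd48 call was lost (highest adjusted p = 0.0610), which left 1 gene lower. Neither Cd86 (0.92 ± 0.37) nor Cd69 (0.59 ± 0.23) passed the test, with adjusted p of 0.145 for Cd86 and 0.118 for Cd69.

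Among 9 tested homing genes of 17 listed, 2 were higher (22.2%, against 6.68% of all genes) and 0 lower. The median difference was 0.11. Cnr2, the cannabinoid receptor that helps retain immature B cells in marrow, gave 11.07, 11.20 and 11.44 in Art:Nfkb2-labelled cells, against 8.94, 8.40 and 8.61 in Rag-labelled cells. It was 6.00-fold higher (log2 difference 2.59 ± 0.17, adjusted p = 1.41e-07), with Art-labelled cells at 10.56. Ackr3, an atypical receptor of CXCL12, was detected on no Rag-labelled array and was at least 1.49-fold higher (adjusted p = 0.00864). The marrow retention receptor Cxcr4 was not called (0.02).

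Of 33 listed genes of the pre-B stage and of light-chain rearrangement, 30 were on the array and 29 were tested. Among the 29, 3 were higher (10.3%, against 6.68% of all genes), 8 lower (27.6%, against 4.72%) and 18 not called. The median difference was -0.14. Besides Rag1 and Rag2, with the limits given above, and Xrcc6, the transcription factors Ebf1, Sox4, Lef1, Runx1 and Klf2 were lower. Ebf1, which specifies the B lineage, gave 10.42, 10.52 and 10.35 in Art:Nfkb2-labelled cells, against 11.30, 11.02 and 11.22 in Rag-labelled cells, 1.68-fold lower (adjusted p = 0.00393). Sox4, needed for early B-cell growth, gave 7.13, 7.41 and 7.25 in Art:Nfkb2-labelled cells, against 8.41, 7.81 and 8.20 in Rag-labelled cells, 1.84-fold lower (adjusted p = 0.00273). Lef1 was 1.77-fold lower (adjusted p = 0.00633), and the groups overlapped in none of these 3 genes. The calls of Runx1 (-0.71) and Klf2 (-0.48) were lost when single arrays were left out (highest adjusted p = 0.0607 and 0.0916).

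Besides Cnr2, the higher genes of this list were Bcl6, a transcriptional repressor known to keep pre-B cells alive during recombination, 1.38-fold higher (adjusted p = 0.00955), and Spib, an ETS factor, 1.38-fold higher (adjusted p = 0.0220). Both calls were lost without Rag array 2, which left 1 gene of the list called higher, and with median scaling. Pax5 (-0.42), Ikzf1 (-0.06), Irf4 (-0.37), Irf8 (-0.06), Foxo1 (-0.07) and Spi1 (0.20), which also direct this stage, were not called. Spic, an ETS factor and 1 of 11 genes that the study itself singles out, was detected on no array of either group. Its background values were 4.82, 4.73 and 4.87 in Art:Nfkb2-labelled cells, against 4.93, 4.66 and 4.73 in Rag-labelled cells. Of the 11 singled-out genes 6 were higher (Nfkb2, Bcl3, Cd40, Pim2, Cd80 and Swap70) and 0 lower, a list that is not independent of these data. Nfkb2 is itself a targeted gene, with the limit given above.

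Of 36 listed signalling genes downstream of the pre-B cell receptor, 31 were on the array and 27 were tested, of which 3 were higher (11.1%, against 6.68% of all genes) and 3 lower (11.1%, against 4.72%), with a median difference of -0.09. Prkcb, the protein kinase C beta that couples the receptor to NF-kB, gave 12.64, 12.71 and 12.66 in Art:Nfkb2-labelled cells, against 13.42, 13.34 and 13.40 in Rag-labelled cells, 1.65-fold lower (adjusted p = 0.00425). Zap70, a kinase related to SYK, was 1.45-fold lower (adjusted p = 0.00515) and Inpp5d, encoding the phosphatase SHIP, 1.49-fold lower (adjusted p = 0.0176). The Inpp5d call was lost without Art:Nfkb2 array 2 or without Rag array 2 (highest adjusted p = 0.08). Pik3ap1, Ptpn6 and Bcl10 were 1.62-fold, 1.40-fold and 1.28-fold higher, and none of the 3 kept its call without Art:Nfkb2 array 1 or with median scaling. Over the 6 arrays left out in turn their highest adjusted p was 0.188, 0.136 and 0.0688, and with median scaling 0 genes of the list were higher and 6 lower. Syk (-0.41), Blnk (-0.22), Btk (-0.12), Cd79a (0.06) and Vpreb1 (-0.37) were not called.

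Of 19 tested genes of the IL-7 receptor and STAT5 (26 listed, 23 on the array), 4 were higher and 3 lower. These are shares of 21.1% and 15.8%, against 6.68% and 4.72% of all genes, and the median difference was 0.10. Il7r, the receptor chain itself, gave 12.33, 12.19 and 12.08 in Art:Nfkb2-labelled cells, against 12.84, 13.08 and 13.18 in Rag-labelled cells, 1.78-fold lower (adjusted p = 0.00591). Jak3, its signalling kinase, gave 10.23, 10.12 and 10.25 in Art:Nfkb2-labelled cells, against 9.56, 9.17 and 9.43 in Rag-labelled cells, 1.76-fold higher (adjusted p = 0.00479). The STAT5 target Socs2 was 1.32-fold lower (adjusted p = 0.0175) and the D-type cyclin gene Ccnd3 1.21-fold lower (adjusted p = 0.0348), and without Art:Nfkb2 array 2 or Rag array 2 both lost their calls, so that 1 gene was lower. Tyk2 was 1.22-fold higher, a call lost without any 1 of the 6 arrays. Without Art:Nfkb2 array 3 or Rag array 2 the count higher was 2, and with median scaling it was 0. Cish (-0.10), Myc (-0.28) and Bcl2 (0.10) were not called.

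Proliferation genes did not pass the test in either direction. Of 43 listed, 39 were on the array and 33 were tested, of which 0 were higher and 0 lower in limma's test, 4 had an unadjusted p under 0.05, and the median difference was -0.13. Values lay between -0.61 (Ccne2) and 0.47 (Plk1), with Top2a at -0.06, Cdk1 at -0.30 and Pcna at -0.05. With median scaling 2 were called lower. Among 13 tested BCL2 family genes 3 were higher (23.1%, against 6.68% of all genes) and 0 lower. The 3 were the death-promoting Bbc3 and Pmaip1 above and Bcl2l11, encoding BIM. Bcl2l11 gave 12.20, 12.33 and 12.43 in Art:Nfkb2-labelled cells, against 11.95, 11.69 and 11.60 in Rag-labelled cells, 1.48-fold higher (adjusted p = 0.00132). The survival genes Mcl1 (0.16) and Bcl2l1 (-0.21) were not called, and the median of the 13 was 0.04.

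Among 17 tested genes of glycolysis 3 were higher (17.6%, against 6.68% of all genes) and 0 lower, with a median difference of 0.11. Besides the Pgk1 probe, with the limit given above, these were Aldoc, an aldolase, 1.66-fold higher (adjusted p = 0.00444), and Pdk1, which diverts pyruvate from the mitochondria, 1.44-fold higher (adjusted p = 0.0119). The Pdk1 call was lost without Art:Nfkb2 array 1 or array 2 (highest adjusted p = 0.062). Hk2 (-0.30), Slc2a1 (-0.28) and Ldha (-0.08) were not called, and without Rag array 1 a count of 2 genes was lower. Of 22 tested genes of the unfolded protein response 2 were higher (9.09%, against 6.68% of all genes), the stress factor Ddit3 (1.85-fold, adjusted p = 0.00599) and Ddit4, an inhibitor of mTOR (1.57-fold, adjusted p = 0.0391), and their median was 0.01. The Ddit4 call was lost when single arrays were left out (highest adjusted p = 0.177). Of 23 tested genes of cholesterol and fatty acid synthesis only Hsd17b7 was called (1 gene or 4.35%, higher by 0.34, adjusted p = 0.0369), lost without Art:Nfkb2 array 1 (adjusted p up to 0.175), and the median was 0.08.

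The labelled cell type was checked against markers. All 12 tested pre-B markers were detected on at least 2 arrays of each group, among them Cd79a, Cd79b, Vpreb1 and Pax5, and 3 were lower in Art:Nfkb2-labelled cells (Ebf1, Il7r and Rag1 above). Their summed signal was 124930 to 134609 on Art:Nfkb2-labelled arrays and 143503 to 150860 on Rag-labelled arrays. Of 11 tested markers of mature B and plasma cells 5 were higher and 1 lower, with a median of 0.12. These are shares of 45.5% and 9.09%, against 6.68% and 4.72% of all genes. Cd52, a surface glycoprotein of lymphocytes, gave 14.09, 14.25 and 14.34 in Art:Nfkb2-labelled cells, against 12.64, 13.03 and 13.04 in Rag-labelled cells, 2.51-fold higher (adjusted p = 1.75e-06). Fcer2a, the IgE receptor CD23, was at least 1.19-fold higher (adjusted p = 0.00116), Cd55 1.93-fold (adjusted p = 0.000544), and Ms4a1, encoding CD20, 2.29-fold with a call that was lost when single arrays were left out (highest adjusted p = 0.210). Sdc1, the plasma cell marker CD138, was 1.86-fold lower (adjusted p = 0.0280), a call lost without Art:Nfkb2 array 1 or 2 or Rag array 2 or 3. Ms4a1 and Sdc1 were detected on all arrays of both groups, and Fcer2a on all 3 Art:Nfkb2-labelled arrays. Cr2, Prdm1 and Jchain of the same list were detected on no array of either group.

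Markers of other cells moved with the groups in part, and the part of such cells in the results above was not tested. Of 24 tested myeloid markers (37 listed) 3 were higher (12.5%, against 6.68% of all genes) and 0 lower, with a median of 0.64. Fcgr3, a low-affinity IgG receptor, gave 10.50, 9.59 and 9.69 in Art:Nfkb2-labelled cells, against 6.48, 7.66 and 7.70 in Rag-labelled cells, 6.26-fold higher (adjusted p = 7.48e-05). Tyrobp, an adaptor of innate receptors, was 2.59-fold higher (adjusted p = 0.0107), and C1qa, a complement gene of macrophages, 2.79-fold (adjusted p = 0.0255), with a call lost without 1 of 4 arrays (highest adjusted p = 0.121). Without Rag array 3 the count higher was 5. The summed signal of the list was 23499 to 34624 on Art:Nfkb2-labelled arrays and 11133 to 30917 on Rag-labelled arrays, so that the ranges overlapped, with Rag array 1 lowest. Lyz1, Lyz2, Elane, S100a8, Cd14, Cebpb, C1qb and C1qc, among others, were detected on all arrays of both groups. Itgam, Csf3r and Camp were detected on none. With the median myeloid level of each array as a term in the fit, 20 NF-kB genes and 15 p53 targets were higher. This term is a median over the tested markers on the same arrays and does not measure the share of myeloid cells.

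Of 6 tested NK markers 2 were higher (33.3%, against 6.68% of all genes) and 0 lower. Prf1 (0.03) and Klrd1 (0.06), detected on all arrays of both groups, were not called. Neither were Klra1 (-0.29) and Klra7 (-0.14), detected on no array of either group. Nkg7, a granule protein, gave 8.56, 8.14 and 9.05 in Art:Nfkb2-labelled cells, against 6.14, 5.95 and 6.63 in Rag-labelled cells, 5.09-fold higher (adjusted p = 0.000259). Only 1 Rag-labelled array detected Nkg7, so this fold rests in part on background values. Il18r1, a receptor chain for IL-18, was detected on no Rag-labelled array and was at least 3.24-fold higher (adjusted p = 0.000433). The NK-defining Ncr1, Klrb1c, Klrk1, Gzma and Gzmb were detected on no array of either group. The T-cell genes Cd3d, Cd3e and Cd3g were likewise undetected, and of 6 tested T-cell markers only Zap70 was called, lower as above. Of 3 erythroid markers Hbb-bt (0.51) was higher and Tfrc (-0.41) lower, both calls lost when single arrays were left out, and none of 4 stromal markers and 1 mast cell marker was called. Among 5 early progenitor markers only Il12a, a cytokine subunit, was called, 2.93-fold higher (adjusted p = 1.53e-05), and Flt3 and Cd34 were undetected. In the plasmacytoid list (8 tested) Bst2 and Ly6d were higher and Cox6a2 was 2.54-fold lower (adjusted p = 0.00380), and Siglech was not called (-0.40).

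**Figure D4:**
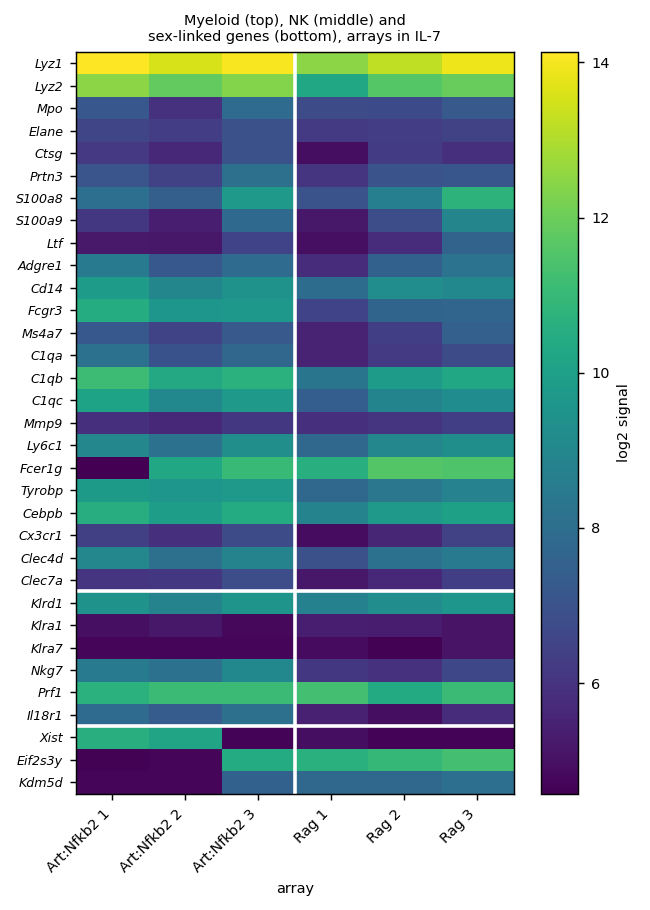
Log2 signal (colour) of tested myeloid, NK and sex-linked genes on the 6 arrays in IL-7, with Art:Nfkb2 arrays to the left of the white line and Rag arrays to the right. Fcgr3, Nkg7 and Il18r1 are brighter on all 3 left columns, Fcer1g is dark on Art:Nfkb2 array 1 alone, and Eif2s3y is dark on Art:Nfkb2 arrays 1 and 2.

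Art-labelled cells and withdrawn cells were set beside these values, in comparisons that share arrays with the one above. For NF-kB genes, Art-labelled cells in IL-7 differed from Rag-labelled cells by 2.33 for Ltb and 2.11 for Bcl3, and Art:Nfkb2-labelled cells differed from Art-labelled cells by 1.12 for Ltb (adjusted p = 0.00143) and 0.53 for Bcl3 (adjusted p = 0.0565). For p53 targets, Art:Nfkb2-labelled cells differed from Art-labelled cells in IL-7 by -0.02 for Cdkn1a, 0.08 for Phlda3, 0.20 for Bbc3 and -0.06 for Zmat3, none of them called. Art:Nfkb2-labelled cells exceeded Art-labelled cells by 4.54 for Ctse and 3.39 for Fcgr3. Pglyrp1, Foxq1 and Pgk1 were detected on no Art-labelled array, and the bounds in Art:Nfkb2-labelled cells were at least 6.74-fold higher for Pglyrp1, at least 3.05-fold for Foxq1 and at least 4.24-fold for Pgk1. Rag1, Hey1, Prm1 and Dmrt3 lay as low or lower in Art-labelled cells, at 9.45, 7.83, 8.57 and 5.70.

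At 2 days after withdrawal of IL-7, the difference between Art:Nfkb2-labelled and Rag-labelled cells was 3.53 for Ltb, 2.95 for Bcl3, 2.44 for Cdkn1a, 1.85 for Cd74 and 5.50 for Slc47a1. The test of the change in the difference (withdrawn minus IL-7) called 164 of 8446 genes (1.94%), and 478 with the culture as a random block. Ltb, Bcl3, Cdkn1a, Cd74 and Slc47a1 were not among the 164. The named genes that were called there are given in the closing section.

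**Figure D5:**
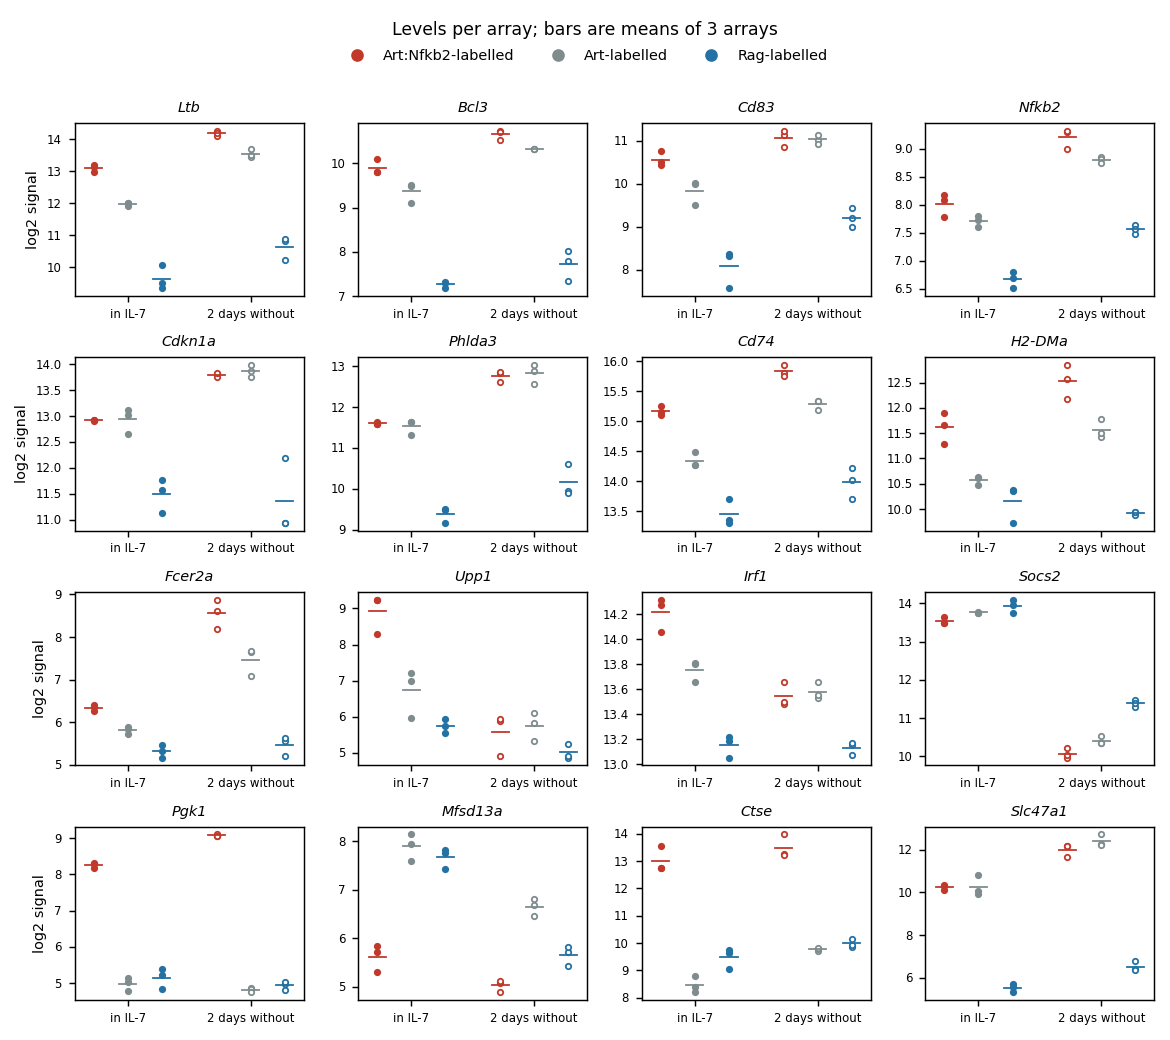
Log2 signal of 16 genes on all 18 arrays, in IL-7 (filled) and 2 days after withdrawal (open), for Art:Nfkb2-labelled (red), Art-labelled (grey) and Rag-labelled cells (blue); each point is 1 array and each bar the mean of 3. Fcer2a separates the red and blue groups more after withdrawal, and Upp1 was detected on no withdrawn array.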

How the data were processed

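Each array's group and number were read from its title. In the deposited table every probe has an unnormalized intensity and a detection p-value on each array, per the file headers. A further intensity, in the series matrix deposited by the authors, was normalized by steps not given in the sources used here and served as an alternative only. Partek and GenomeStudio are named in the submitters' processing notes, with no version or role. Background was removed with normexp on the detection p-values, followed by quantile normalization and log2 after adding an offset of 16 (neqc, limma 3.58.1, R 4.3.3), which understates differences of dim genes. Probes detected (p under 0.01) on at least 3 of 18 arrays were kept (11356 of 25697), and the brightest stood for each gene. This left 8446 genes, 673 of them named by probe ID. Of all probes 23978 had 1 gene symbol and 1719 had none.

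A linear model over the 6 groups of 3 arrays was fitted with lmFit and eBayes, two-sided, with Benjamini-Hochberg adjustment over all genes. Lists are described by counts and medians, without a test. The named genes are the targeted genes, the 15 largest called differences per direction with a symbol and non-overlapping groups, and list members. The comparison, its members and the lists were chosen with earlier results of these data known. The fits with a sex term and with a myeloid term were added after the data were seen. Scripts were tested on simulated data. The design text says that IL-7 cultures were themselves withdrawn, but no label ties the numbers to a culture. Same-numbered arrays of a genotype in IL-7 and after withdrawal deviated together (correlations 0.402 to 0.588) and were taken as 1 culture, and a fit with it as a random block (consensus correlation 0.349) was an alternative. No slide was named in the labels or headers, so none was fitted. Promoters came from RefSeq (GRCm38.p6).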

Additional observations from a re-analysis of the deposited data

Results flagged for a closer look

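For 10 named genes a call was made on the change of the difference between Art:Nfkb2-labelled and Rag-labelled cells between the cultures 2 days after IL-7 withdrawal and those in IL-7, tested as an interaction in the same limma fit over 8446 genes, of which 164 were called (1.94%; 478 with the culture as a random block). Each value below is the difference after withdrawal minus the difference in IL-7, on the log2 scale, and none was explained.

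In 3 genes the excess in Art:Nfkb2-labelled cells was larger after withdrawal. Fcer2a, encoding CD23, was at least 4.68-fold higher after withdrawal and at least 1.19-fold higher in IL-7, an interaction of 2.07 ± 0.25 (SE, adjusted p = 0.000517). It averaged 8.56 ± 0.34 in Art:Nfkb2-labelled and 5.46 ± 0.22 in Rag-labelled withdrawn cells (SD, n = 3), and no Rag-labelled array detected it in either condition. H2-DMa, of the peptide-loading class II molecule, was 2.60 higher after withdrawal, against 1.46 in IL-7, an interaction of 1.14 ± 0.27 (adjusted p = 0.0428). Pgk1, again by its single probe, was at least 6.71-fold higher after withdrawal and at least 4.51-fold higher in IL-7, an interaction of 1.03 ± 0.17 (adjusted p = 0.00513), with no Rag-labelled array detecting it. The interactions of Fcer2a and Pgk1 are fitted values that take the Rag-labelled signal at background.

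In 2 other genes the excess was smaller after withdrawal. The interferon-induced Igtp differed by 0.15 after withdrawal, against 1.20 in IL-7, an interaction of -1.05 ± 0.22 (adjusted p = 0.0207). Irf1 differed by 0.41 after withdrawal, against 1.07 in IL-7, an interaction of -0.65 ± 0.13 (adjusted p = 0.0126).

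In 3 further genes Art:Nfkb2-labelled cells were lower in IL-7. The shortfall was larger after withdrawal for Socs2 (-1.31 after withdrawal, -0.40 in IL-7, interaction -0.91 ± 0.14, adjusted p = 0.00338), Zap70 (-1.46 and -0.54, interaction -0.92 ± 0.16, adjusted p = 0.00665) and the cyclin gene Ccnd3 (-0.85 and -0.27, interaction -0.58 ± 0.11, adjusted p = 0.0127). For Upp1 and Mfsd13a no withdrawn array of either genotype gave a detected signal, so the fitted interactions of -2.62 for Upp1 and 1.43 for Mfsd13a rest on background values and show no size or direction of change. In IL-7 Upp1 was at least 7.12-fold higher and Mfsd13a at least 2.95-fold lower. With the culture as a random block all 10 kept their calls (adjusted p between 3.92e-05 and 0.00613). With median scaling, which shifts the median of all interactions to 0.20, Ccnd3, Igtp, Irf1 and Zap70 were no longer called, and with the series matrix values Pgk1, Mfsd13a and Upp1 were not.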

How the results depend on the processing

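Of 140 named genes called, none changed direction under 18 alternatives. Median scaling moved the median of all genes to -0.16 and gave 280 genes higher and 567 lower, so that 33.1% of calls were higher, against 58.6% with quantile normalization. Without background correction 160 genes passed 2-fold, against 278. A fit of only the 6 arrays called 617 genes, 367 higher and 250 lower. Leaving out 1 array in turn gave 668 to 988 genes called, 402 to 589 higher, 241 to 399 lower and 253 to 292 past 2-fold, the fewest lower without Art:Nfkb2 replicate 1. The sex term gave 620 called, 383 higher and 237 lower, and the myeloid term 1044 called. Same-numbered arrays of the genotypes were not paired (correlations of deviations -0.213, -0.167 and 0.222). With the replicate number as a block in the 6 arrays, 326 genes were called, 214 higher and 112 lower. With the culture as a random block 981 were called, and the interaction count was 478, against 164. The offset of 50, the series matrix values, a strict filter, no filter and every probe tested alone gave 846 to 1085 genes called. The causes of these shifts were not tested. Of the 30 largest differences, 24 to 30 kept their calls under each alternative. No difference can be measured where a probe is not detected in either group, and 52 genes called higher and 36 called lower were undetected in the dimmer group, so their folds are bounds.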
